A study of Mus musculus with 18 samples.

Results

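The genes of MHC class I antigen presentation were followed across the brain arrays of T1R3 knockout mice. T1R3, encoded by Tas1r3, is a taste receptor subunit that both the sweet and the umami receptor use. The set held 10 genes chosen by symbol: the class I heavy chain genes H2-Bl, H2-K1, H2-D1 and H2-T23, the light chain gene B2m, the peptide transporter genes Tap1 and Tap2, the loading factor gene Tapbp, and the immunoproteasome genes Psmb8 and Psmb9. Every probe whose current or former symbol matched was taken, which gave 15 of the 25697 probes on the array. Of these, 11 probes of 9 genes were detected on at least 3 arrays and tested, among 15476 probes of 10517 named genes in all. A probe counted as detected where its detection p-value, which sets it against the array's negative control beads, was under 0.05.

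Total RNA came from the cortex, hippocampus and hypothalamus of male mice aged 4 to 5 months, and each of the 6 groups held 3 animals with 1 Illumina bead array each. Knockout mice (T1R3KO) lacked T1R3, and the labels limit the deletion to no tissue. Their line had been bred to C57BL/6J for at least 4 generations, and the controls were wild-type (WT) mice on the same background. No source used here names the strain in which the allele was made, so the deletion and any donor DNA that remained elsewhere in the genome cannot be told apart. The regions were bulk tissue, in which fewer cells of a type and less RNA per cell cannot be told apart either.

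An MHC class I molecule is a heavy chain bound to the light chain beta-2-microglobulin, and it shows the cell's own peptides at the surface. The proteasome cuts those peptides, the transporter TAP, a pair of Tap1 and Tap2 proteins, moves them into the endoplasmic reticulum, and tapasin (Tapbp) holds the empty heavy chain while it is loaded. Interferons raise most of these genes. In the brain, microglia and endothelial cells are the main sources of class I, neurons carry low levels, and in mice class I and beta-2-microglobulin have known roles in pruning synapses.

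The promoters of 8 of the 10 genes were found in RefSeq (GRCm38.p6), as windows from 250 bases before to 50 bases after the start. The sequences are given for B2m and H2-T23, which had probes that fell in the knockout, and for the classical heavy chain genes H2-K1 and H2-D1, whose signals passed no knockout test. Capitals mark matches on either strand to 3 motifs that did not overlap in these windows: the interferon-response core GAAANNGAA, the kappaB motif GGGGATTCC and the CCAAT box.
B2m: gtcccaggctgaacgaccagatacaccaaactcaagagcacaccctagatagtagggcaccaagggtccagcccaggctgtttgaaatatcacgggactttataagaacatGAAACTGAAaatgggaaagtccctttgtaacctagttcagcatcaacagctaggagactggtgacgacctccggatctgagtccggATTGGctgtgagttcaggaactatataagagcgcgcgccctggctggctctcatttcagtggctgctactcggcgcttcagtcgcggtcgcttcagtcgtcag
H2-T23: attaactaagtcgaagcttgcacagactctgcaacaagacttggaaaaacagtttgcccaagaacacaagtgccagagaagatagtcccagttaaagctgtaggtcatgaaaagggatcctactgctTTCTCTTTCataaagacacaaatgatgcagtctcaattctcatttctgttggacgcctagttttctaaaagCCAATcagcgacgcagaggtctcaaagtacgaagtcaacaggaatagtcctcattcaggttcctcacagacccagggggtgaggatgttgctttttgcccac
H2-K1: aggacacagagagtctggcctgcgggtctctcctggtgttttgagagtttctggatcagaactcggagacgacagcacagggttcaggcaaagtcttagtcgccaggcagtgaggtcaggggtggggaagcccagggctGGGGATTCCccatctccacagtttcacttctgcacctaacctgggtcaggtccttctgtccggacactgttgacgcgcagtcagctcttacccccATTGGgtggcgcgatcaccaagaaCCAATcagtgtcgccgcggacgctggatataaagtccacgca
H2-D1: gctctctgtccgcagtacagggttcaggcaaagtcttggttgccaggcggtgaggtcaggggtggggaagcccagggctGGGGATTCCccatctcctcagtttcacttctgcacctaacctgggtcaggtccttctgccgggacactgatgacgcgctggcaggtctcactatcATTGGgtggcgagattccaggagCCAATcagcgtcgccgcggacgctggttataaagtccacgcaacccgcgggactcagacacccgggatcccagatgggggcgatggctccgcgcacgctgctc
These windows lie at chr2:122147437-122147736 on the plus strand for B2m, chr17:36032652-36032951 on the minus strand for H2-T23, chr17:34000298-34000597 on the minus strand for H2-K1 and chr17:35262844-35263143 on the plus strand for H2-D1. The interferon-response spelling GAAANNGAA was matched 139 bases before the start of B2m and 123 bases before that of H2-T23. It was matched in no window of the other 6 genes. Of all 32851 promoter windows, 8.56% held this spelling. Other spellings of interferon-response sites, such as those with the gap placed differently, were not searched in any window. A window without a match, those of H2-K1 and H2-D1 included, may therefore still hold such a site. The kappaB spelling GGGGATTCC was matched 111 bases before the start of H2-K1 and 171 bases before that of H2-D1. Of all windows, 0.25% held that spelling, and other kappaB spellings were not searched in any window. The CCAAT box was matched in every one of the 8 windows but that of Psmb8, against 37.4% of all windows. The windows of Tap1 and Psmb9, which face away from each other, shared 275 bases, and their CCAAT matches are the same site, so 1 site counts for both windows. A match describes the letters and does not show that a factor binds there.

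In the average over the 3 regions, 4 of the 11 probes tested changed: the H2-Bl probe rose, and 1 of the 2 H2-T23 probes and both tested B2m probes fell. That is 36.4% of the probes, where 6.02% of all probes tested passed the same threshold, a Benjamini-Hochberg adjusted p under 0.05 from limma. These genes had been picked with earlier results of these data known, and the H2-Bl probe entered the tests only through the knockout arrays, so their share is a description. The other 7 probes, for H2-K1, H2-D1, Tap2, Tapbp, Psmb8, Psmb9 and the other H2-T23 probe, did not pass. By region, 3 probes passed in cortex (27.3%, against 2.69% of all probes), 1 in hippocampus (9.09%, against 1.25%) and 2 in hypothalamus (18.2%, against 1.6%). The median log2 fold change, knockout minus wild type, of the 11 probes was -0.06 in the average, against 0.01 over all probes. The probe of H2-Bl, a gene of the heavy chain family, which went up, and the probes of the light chain gene B2m, which went down, moved in opposite directions.

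**Figure D1:**
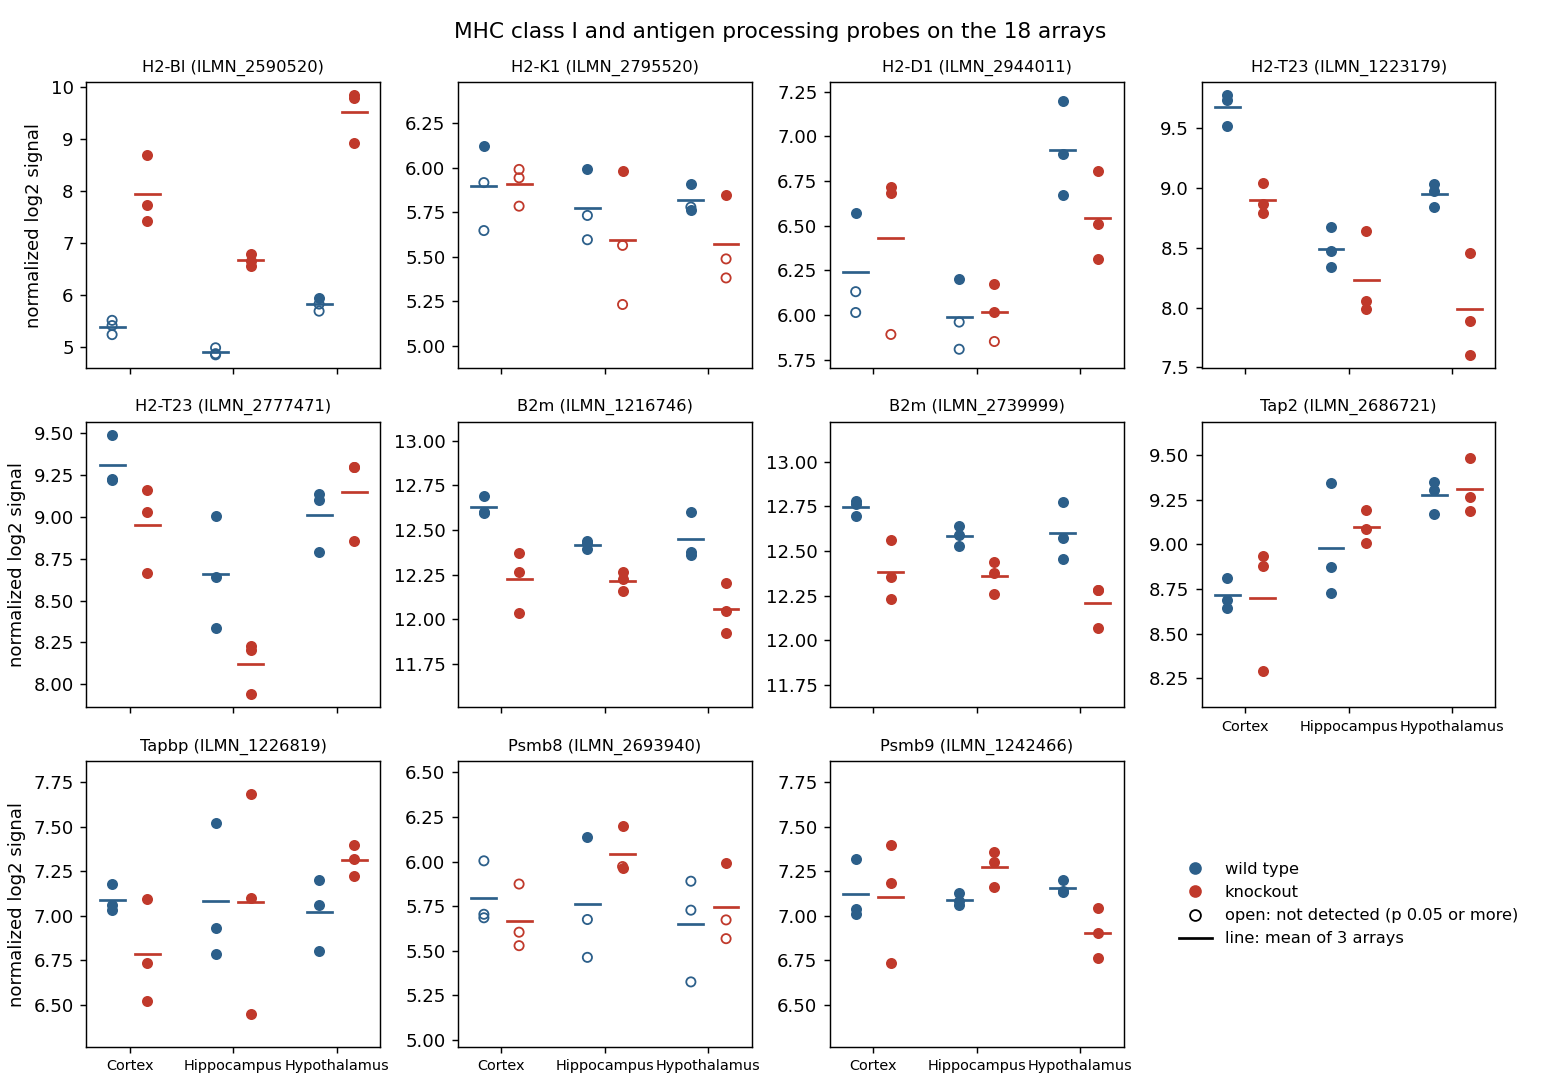
Normalized log2 signal (vertical axes, which differ between panels and do not start at 0) of the 11 tested probes on the 18 arrays, by region and genotype. Each point is an array, open where the probe was not detected, and each line the mean of 3. H2-Bl is the one panel in which all knockout arrays stand far above the wild-type arrays of their region, and in both B2m panels every knockout array lies below the wild-type arrays of its region.

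H2-Bl gave the largest difference of the set. RefSeq lists it as a transcribed pseudogene of the class I family, so its RNA has no assigned heavy chain product there. In cortex its probe (ILMN_2590520) read 246, 508 and 252 intensity units on the knockout arrays and 112, 115 and 105 on the wild-type arrays. In hippocampus it read 179, 184 and 155 in knockout and 90.6, 81.1 and 88.8 in wild type, and in hypothalamus 744, 1055 and 910.1 in knockout and 146, 148 and 138 in wild type. Knockout and wild-type arrays were apart in every region, and the highest wild-type signal, in hypothalamus, was below the lowest knockout signal, in hippocampus.

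The H2-Bl probe was detected on all 9 knockout arrays but on only 1 wild-type array, the hypothalamus array 2. Where no wild-type array detected it, the difference has a bound: the knockout signal was at least 3.63-fold higher in cortex (adjusted p = 2.6e-05, limma) and at least 1.64-fold higher in hippocampus (adjusted p = 0.00137, limma). Each bound sets the knockout mean against the lowest normalized level of a detected probe on each wild-type array, or the probe's own level where that was higher. The adjusted p-values beside the bounds belong to the fitted differences, which use wild-type values below detection, and do not test the bounds. In hypothalamus, where 1 of 3 wild-type arrays detected it, the log2 fold change was 3.69 ± 0.26 (adjusted p = 2.94e-07, limma). That size rests on a wild-type level near background, with detection p-values of 0.055, 0.030 and 0.068 on the 3 arrays, and its SE does not cover this limit. H2-Bl also passed in the average over regions (adjusted p = 6.48e-09, limma), for which no size is given, since its wild-type level was at background in cortex and hippocampus. In the limma F test for unequal knockout effects across regions, 0 of the 11 probes passed, against 7 of all 15476 probes (0.0452%). For H2-Bl that test compares differences that are bounds in cortex and hippocampus, so its value (adjusted p = 0.229, limma) is not read. H2-Bl passed that test, as 1 of the 11 probes instead of 0, when knockout cortex array 1 or 2 was left out. Such a pass rests on the same bounds and is not read either. A further fit left out the 3 cortex arrays with markers of neighbouring tissue, striatal or hypothalamic (knockout 1 and 3, wild type 2). It keeps array 2 as the only knockout cortex array.

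Class I genes are close relatives in sequence, and the probe sequences were not used here. A probe named for a class I gene may bind RNA of another, so the values below are those of the probes, under the names the array gives them.

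H2-T23 encodes the Qa-1 heavy chain, a nonclassical class I molecule that shows leader peptides of other class I chains to receptors of natural killer cells. It has 2 probes on the array, both detected on all 18 arrays, of which 1 passed. On ILMN_1223179 the cortex signals were 505, 632 and 485 in knockout and 799, 863 and 1021 in wild type. In hypothalamus they were 567, 353 and 267 in knockout and 603, 607 and 647 in wild type. In both regions every knockout array was below every wild-type array, whereas in hippocampus the groups overlapped, at 489, 324 and 266 in knockout and 413, 493 and 361 in wild type.

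The fall on ILMN_1223179 was 0.77 ± 0.19 on the log2 scale in cortex (value -0.77, adjusted p = 0.0422, limma), 1.71-fold. It was 1.95-fold in hypothalamus (log2 fold change -0.96 ± 0.19, adjusted p = 0.0144, limma). In hippocampus the log2 fold change was -0.27 ± 0.19, with a 95% interval from -0.67 to 0.14 (adjusted p = 0.738, limma). The average fell by 0.67 ± 0.11, or 1.59-fold (adjusted p = 0.00113, limma). The cortex call was lost when any of knockout arrays 1 and 3 or wild-type arrays 1, 2 and 3 was left out, which left 1 of 11 probes called there, H2-Bl. The hypothalamus call was likewise lost without knockout array 2 or 3 or wild-type array 2 or 3, again leaving 1 probe. With only the arrays of the compared groups in the fit, both calls were lost as well, and the cortex call was lost without the filter on dim probes and without the 3 cortex arrays named above.

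On the other H2-T23 probe, ILMN_2777471, knockout signals were 584, 678 and 429 in cortex, 385, 359 and 259.7 in hippocampus and 716, 793 and 666 in hypothalamus. Wild-type signals were 686, 719 and 713 in cortex, 412, 486 and 483 in hippocampus and 585, 668 and 677 in hypothalamus. Every knockout array was below every wild-type array in cortex and hippocampus, the groups overlapped in hypothalamus, and none of the 3 regions passed. The average log2 fold change was -0.25 ± 0.10, with a 95% interval from -0.47 to -0.03 (adjusted p = 0.187, limma).

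Whether the 2 H2-T23 probes differed in their knockout effect was tested after their values had been seen. The knockout effect on the log2 ratio of the first probe to the second was -0.41 in cortex, 0.27 in hippocampus and -1.10 in hypothalamus. Exact two-sided permutation p-values within a region were 0.1, 0.4 and 0.1, and 0.1 is the smallest that 3 arrays against 3 allow. Over the regions the mean effect was -0.42 (p = 0.0843, exact permutation of genotypes within regions, 8000 arrangements, two-sided), with arrays taken as independent. The difference between the probes was not past 0.05, and the call for a fall of H2-T23 rests on 1 of its 2 probes.

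The classical heavy chain genes, which present peptides to cytotoxic T cells, lay close to background. H2-K1 had a probe detected on 0 arrays (ILMN_2634603, 72.1 to 98.4 units) and a probe detected on 6 arrays, 2 knockout and 4 wild type (ILMN_2795520, 99.1 to 150.4 units). The average log2 fold change of the second was -0.14 ± 0.10, with a 95% interval from -0.35 to 0.07 (adjusted p = 0.498, limma). The H2-D1 probe (ILMN_2944011) was detected on 12 arrays, 7 knockout and 5 wild type, at 122 to 250.5 units. In hypothalamus it read 195, 212 and 169 in knockout and 202, 212 and 251 in wild type, which overlapped. Its average log2 fold change was -0.06 ± 0.12, with an interval from -0.32 to 0.21 (adjusted p = 0.862, limma). A fall of H2-K1 as large as that of B2m below lies within its interval, so it was not excluded by these arrays.

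**Figure D2:**
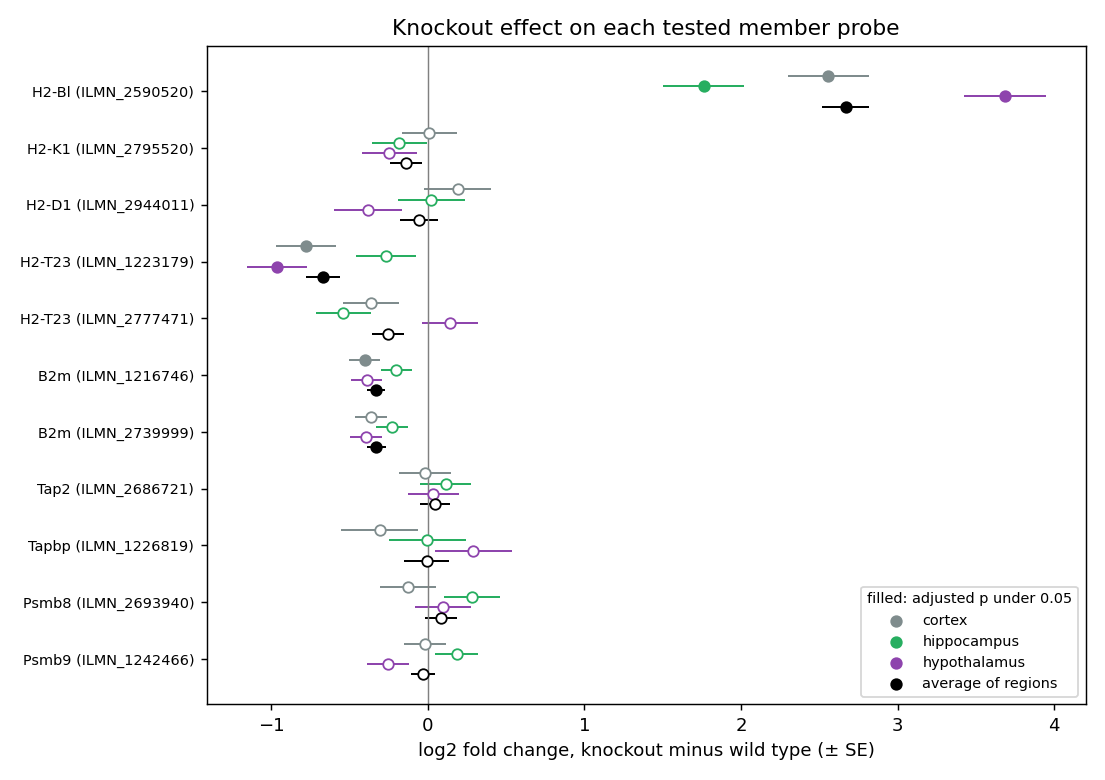
Log2 fold change, knockout minus wild type (horizontal axis), of the 11 tested probes in each region and in the average; points are fitted values, bars are SE, and filled points have an adjusted p under 0.05. The H2-Bl points lie farthest right. Those of cortex, hippocampus and the average rest on wild-type levels at background and show a call, not a size. The H2-Bl point of hypothalamus rests on wild-type levels near background. The B2m points lie between -0.40 and -0.20, and those of Tap2, Tapbp, Psmb8 and Psmb9 on both sides of 0.

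B2m encodes beta-2-microglobulin, the light chain that nearly all class I molecules need to reach the surface, and it was among the bright probes of the array. On ILMN_1216746 the cortex signals were 4037, 5991 and 4841 in knockout and 5833, 6761 and 6730 in wild type. In hippocampus they were 4854, 4516 and 3475 in knockout and 5594, 5183 and 4196 in wild type. In hypothalamus they were 5368, 5247 and 3899 in knockout and 6026, 5479 and 6602 in wild type. On ILMN_2739999 the knockout signals were 4599, 6738 and 5122 in cortex, 5204, 5108 and 3865 in hippocampus and 5964, 5522 and 4586 in hypothalamus. The wild-type signals were 6217, 7204 and 7564, then 6159, 6021 and 4667, then 6955, 5924 and 7401. The deposited signals of the genotypes overlapped on both probes in cortex and hippocampus, and on ILMN_2739999 in hypothalamus, and after normalization every knockout array lay below every wild-type array of its region on both probes.

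The average fell by 0.33 ± 0.06 on the log2 scale, 1.26-fold, on ILMN_1216746 (adjusted p = 0.00169, limma) and by 0.33 ± 0.06, 1.25-fold, on ILMN_2739999 (adjusted p = 0.00244, limma). By region, ILMN_1216746 gave -0.40 ± 0.10 in cortex (adjusted p = 0.0411, limma), -0.20 ± 0.10 in hippocampus (adjusted p = 0.517) and -0.39 ± 0.10 in hypothalamus (adjusted p = 0.0679). ILMN_2739999 gave -0.36, -0.23 and -0.39, with adjusted p-values of 0.0768, 0.457 and 0.0769. The single regional call, in cortex, was lost with median centring, with array weights, with no arrays but those of cortex fitted, and when any of knockout arrays 1 and 3 or the 3 wild-type arrays was left out. It was also lost without the 3 cortex arrays with markers of neighbouring tissue, which left 1 of 11 probes called in cortex. The average fall passed without those arrays, at -0.29 on ILMN_1216746 (adjusted p = 0.0187, limma) and -0.28 on ILMN_2739999 (adjusted p = 0.0302, limma). The remaining B2m probe, ILMN_2670561, was detected on 0 arrays and read 67.5 to 95.1 units.

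The peptide supply genes passed no knockout test. Tap1 was detected on 0 of 18 arrays, at 83.9 to 116.9 units, and gives no comparison. Tap2 (ILMN_2686721), its partner in the transporter, was detected on all 18 arrays at 381 to 927 units, with an average log2 fold change of 0.04 ± 0.10 and an interval from -0.16 to 0.25 (adjusted p = 0.853, limma). Tapbp (ILMN_1226819) was also detected on all arrays, at 151 to 318 units, with -0.01 ± 0.14 and an interval from -0.31 to 0.29 (adjusted p = 0.988, limma). Its other probe (ILMN_3155492) was detected on 2 arrays and not tested.

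The immunoproteasome subunits, which replace constitutive catalytic subunits under interferon, did not pass either. Psmb8 (ILMN_2693940) was detected on 4 arrays, 3 knockout and 1 wild type, and Psmb9 (ILMN_1242466) on all 18, at 183 to 252 units. Their average log2 fold changes were 0.08 ± 0.10 (interval -0.14 to 0.30, adjusted p = 0.72, limma) and -0.03 ± 0.08 (interval -0.20 to 0.14, adjusted p = 0.889, limma). A fall as large as the B2m average of -0.33 lies outside the intervals of Tap2, Psmb8 and Psmb9, although that of Psmb8 rests on signals mostly at background. It lies only just outside that of Tapbp, which starts at -0.31. The interval of B2m itself, from -0.45 to -0.21 on ILMN_1216746, overlaps that of Tapbp, so a fall of Tapbp like that of B2m is not excluded.

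Between wild-type regions, the 2 H2-T23 probes and those of H2-D1 and Tap2 differed. The H2-Bl probe was also called between hypothalamus and hippocampus, and counts there, but its wild-type signals were mostly below detection. Hippocampus and cortex differed on 2 of the 11 probes (18.2%, against 18.6% of all probes), hypothalamus and cortex on 3 (27.3%, against 49.5%), and hypothalamus and hippocampus on 2 (18.2%, against 42%). H2-T23 had its highest mean in cortex on both probes. On ILMN_1223179 it was lower in hippocampus by a log2 fold change of -1.18 ± 0.19 (adjusted p = 4.2e-04, limma) and in hypothalamus by -0.73 ± 0.19 (adjusted p = 0.00503, limma), while hypothalamus and hippocampus did not differ past the threshold (0.45 ± 0.19, adjusted p = 0.0691, limma). On ILMN_2777471 hippocampus was lower than cortex by -0.65 ± 0.18 (adjusted p = 0.0172, limma), a call lost without wild-type cortex array 1 or without wild-type hippocampus array 1 or 2, each of which left 1 probe called. Without wild-type hippocampus array 3, hypothalamus and hippocampus differed on 4 probes, ILMN_2777471 and Tap2 among them.

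H2-D1 was highest in wild-type hypothalamus, at 202, 212 and 251 units, against 155, 145 and 151 in cortex and 135, 161 and 137 in hippocampus, where 1 array of 3 in each detected it. The log2 difference was 0.69 ± 0.21 against cortex (adjusted p = 0.0147, limma) and 0.93 ± 0.21 against hippocampus (adjusted p = 0.00239, limma). The difference from cortex did not pass without wild-type cortex array 2 or 3 or wild-type hypothalamus array 3, and H2-D1 was not tested under the stricter filter. Tap2 signals were 490.2 ± 34.9 (SD, n = 3) in cortex, 550.1 ± 33.5 in hippocampus and 754 ± 26.5 in hypothalamus, of which hypothalamus and cortex differed (0.56 ± 0.17, adjusted p = 0.0106, limma). H2-Bl was called higher in hypothalamus than in hippocampus (adjusted p = 0.00966, limma), but it was detected on 1 of those 6 wild-type arrays, the hypothalamus array 2, so no size is given, and the call was lost with an offset of 50. B2m, Tapbp, Psmb8, Psmb9 and H2-K1 passed no region test in wild type. B2m levels were 6441 ± 527 units in cortex, 6036 ± 562 in hypothalamus and 4991 ± 719 in hippocampus on ILMN_1216746, before normalization.

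Across the 18 arrays, with each region's mean removed, the 2 bright B2m probes followed each other (r = 0.97) and the 2 H2-T23 probes hardly did (r = 0.20). H2-Bl ran against B2m (r = -0.79 on ILMN_1216746) and against H2-T23 ILMN_1223179 (r = -0.87). B2m and H2-T23 ILMN_1223179 ran together (r = 0.73). These correlations hold the genotype difference itself and arrays that share a region, so they describe the pattern and carry no test. The genes whose pattern was most like H2-Bl over the same 18 arrays were Fpr2 (r = 0.97), a formyl peptide receptor gene, Tmem87a (r = 0.96) and Has1 (r = 0.96), a hyaluronan synthase gene. Fpr2 and Has1 lie, like H2-Bl, on chromosome 17, and Tmem87a lies, like B2m, on chromosome 2. Those most like B2m were Klhl21 (r = 0.91), Irgm2 (r = 0.90), an interferon-induced GTPase gene, and Smco3 (r = 0.90). Those most like H2-D1 were Glmp (r = 0.81), Rhbdd2 (r = 0.81) and Dag1 (r = 0.80).

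The rest of the pathway was read from gene lists, with 1 probe per gene and the average over regions, in which 3.11% of the 10517 genes tested rose and 3.13% fell, with a median log2 fold change of 0.01. Of the other class I genes, 30 of 41 were on the array and 13 were tested, of which 0 rose and 1 fell. The gene that fell was H2-M3, which presents N-formylated peptides. In cortex its signal averaged 183 ± 27.1 (SD, n = 3) without T1R3 and 274 ± 19.7 in wild type. The knockout and wild-type means were 152 ± 20.7 and 201 ± 15.3 in hippocampus, and 305 ± 73.3 and 383 ± 38.2 in hypothalamus. The average fell by 0.68 ± 0.09 on the log2 scale (adjusted p = 2.16e-04, limma). Of 11 peptide loading and trimming partners 0 changed. The values of smallest p were 0.16 ± 0.10 for Calr, a chaperone of the loading complex (adjusted p = 0.379, limma), and 0.09 ± 0.06 for Pdia3 (adjusted p = 0.442, limma). Of 18 proteasome genes 0 changed, and Psmb10, the third immunoproteasome subunit, stood at 0.20 ± 0.06 (adjusted p = 0.0598, limma). Of 17 regulators of class I transcription, 1 rose: Stat2, a transducer of interferon signals (0.48 ± 0.09, adjusted p = 0.00334, limma). Of 9 class II genes 0 changed. Their median log2 fold change was 0.25 in cortex (1 of 9 below 0) and -0.50 in hypothalamus (8 of 9 below 0). Cd74, the class II invariant chain, had log2 fold changes of 1.25 ± 0.38 (cortex), 0.88 ± 0.38 (hippocampus) and -0.54 ± 0.38 (hypothalamus), and the test between regions did not pass (unadjusted p = 0.00996, adjusted p = 0.503, limma).

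Genes of the interferon response, to which the class I genes belong by regulation, were the list with the most falls in the average over regions. There 8 of 21 fell, 0 rose, and 18 of 21 values were below 0, with a median of -0.27. By region, 0 of the 21 passed in cortex, 0 in hippocampus and 1 in hypothalamus, with medians of -0.27, -0.21 and -0.31. Their summed normalized level was 22851 to 26839 in knockout and 28500 to 30039 in wild-type hypothalamus, which did not overlap. The sums overlapped in cortex, at 21192 to 25219 and 21441 to 22605, and in hippocampus, at 26487 to 29002 and 25674 to 30605. Oasl2, an antiviral gene of the oligoadenylate synthetase family, fell by 0.57 ± 0.10 (adjusted p = 0.00179, limma). In hypothalamus the knockout stood at 315 ± 18.5 units (SD, n = 3) and the wild type at 625 ± 33.1, in cortex at 224 ± 23.4 and 260.6 ± 20.7, and in hippocampus at 243 ± 8.45 and 274 ± 15.8. The hypothalamus difference passed (-1.31 ± 0.17, adjusted p = 3.92e-04, limma), and the test between regions did not (adjusted p = 0.229, limma). Rsad2, which encodes the antiviral protein viperin, fell by 0.50 ± 0.10 (adjusted p = 0.00497, limma). Irgm2 fell by 0.51 ± 0.10 (adjusted p = 0.00537, limma) and Lgals3bp, which encodes a secreted galectin-binding protein, by 0.67 ± 0.13 (adjusted p = 0.00563, limma). The lists describe these genes, and no test of a list as a whole was made.

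**Figure D3:**
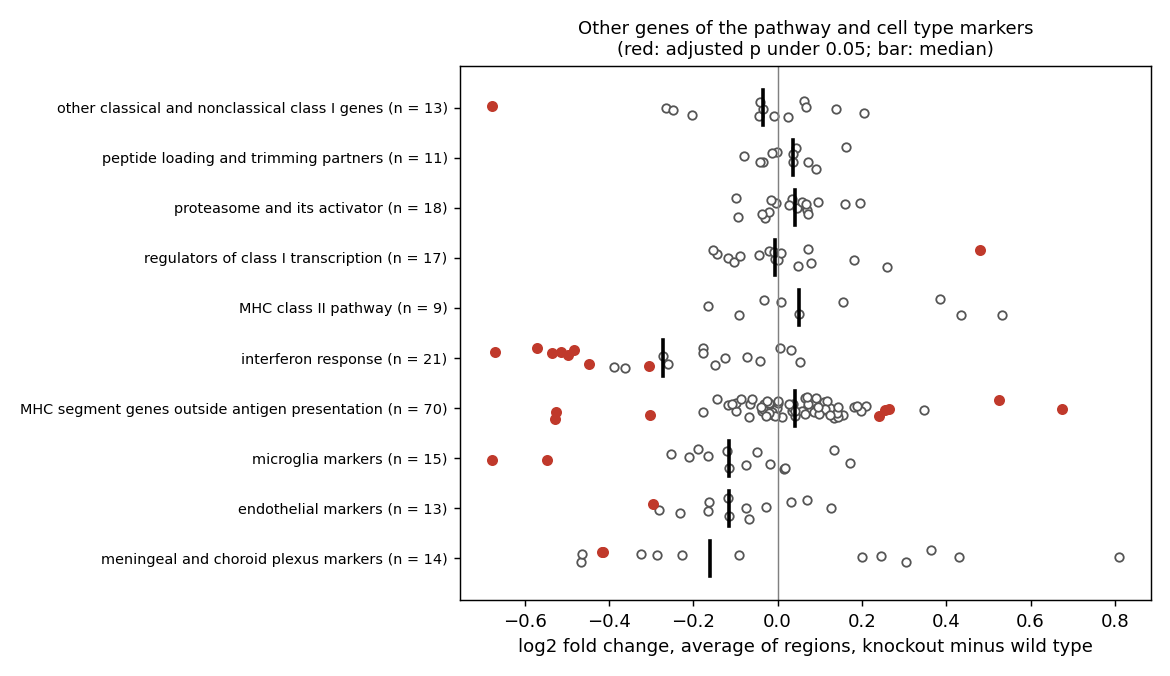
Log2 fold change in the average over regions (horizontal axis) of the genes in each list, 1 probe per gene; red points have an adjusted p under 0.05 and bars are medians. The interferon list lies mostly left of 0, with 8 red points, and the proteasome and peptide loading lists have 0.

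Markers of cells that carry class I moved with these results in part. Of 15 microglia markers, all detected on 18 arrays, 2 fell and 0 rose: Trem2 by 0.55 ± 0.08 (adjusted p = 5.79e-04, limma) and Fcrls by 0.68 ± 0.15 (adjusted p = 0.014, limma), with a list median of -0.12. Their summed normalized level was 10006 to 11431 in knockout and 11642 to 12684 in wild-type hypothalamus, which did not overlap. In cortex the sums were 13371 to 16410 and 14177 to 16151, and in hippocampus 11847 to 12541 and 12298 to 14827, which overlapped. The microglia genes Itgam and Ptprc were detected on 0 arrays. Of 13 endothelial markers, 1 fell, Tek, by 0.30 ± 0.08 (adjusted p = 0.0478, limma). The endothelial sum was 13931 to 14181 in knockout and 14428 to 16054 in wild-type cortex, and overlapped in the other regions. Their part in the falls of B2m and H2-T23 was not tested.

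Of 15 lymphocyte markers on the array, 13 were detected on 0 arrays, and Cd3e on all 18. Meningeal and choroid plexus markers summed to 28712 to 34149 in knockout and 45393 to 76976 in wild-type hypothalamus. The sums overlapped in hippocampus, at 100966 to 107878 and 57420 to 117576, and in cortex, at 40297 to 50397 and 45450 to 48876. Of the 14 genes on that list, 2 fell in the average, Cldn11 (-0.42 ± 0.08, adjusted p = 0.00283, limma) and Lum (-0.41 ± 0.10, adjusted p = 0.028, limma). Lum also passed the test between regions (adjusted p = 0.0425, limma), at -1.43 in hypothalamus, -0.02 in cortex and 0.22 in hippocampus. Cldn11 stood at -0.53 in cortex, where 3 of the 14 genes were below 0 (list median 0.18). In hypothalamus 13 of the 14 were below 0 (list median -0.82). Neither gene stands for the list in every region. Striatal markers in cortex summed to 7776 to 28880 in knockout and 9068 to 15277 in wild type. Of the region markers tested, 0 of 17 for hypothalamus, 0 of 14 for cortex and 0 of 8 for striatum passed in the average, 1 of 8 for hippocampus fell (Spink8), and 0 of 11 neuron markers passed. The hypothalamus sum was 168450 to 176243 in knockout and 164159 to 166669 in wild-type hypothalamus, which did not overlap, and at most 43903 elsewhere. The striatum sum in hypothalamus did not overlap either, at 11663 to 12441 in knockout and 10344 to 11120 in wild type. The hippocampus sum was at most 15756 outside hippocampus. Within hippocampus, the hippocampus sum was 31208 to 31640 in knockout and 33754 to 37831 in wild type, and the neuron sum 117241 to 125560 and 113730 to 116954, so the genotypes did not overlap on either sum. The part of these markers in the class I results was not tested, beyond the fit without the 3 cortex arrays given above.

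Of the 10 genes, 9 lie on chromosome 17, and B2m lies on chromosome 2. Within the segment of chromosome 17 from Tapbp to H2-M3, in the gene order of GRCm38.p6, 93 genes were tested with 1 probe each, 8 of them from the set. H2-Bl was the only one of those 8 past the threshold, since H2-T23 is represented there by ILMN_2777471. Its nearest tested neighbours, H2-T23 and Gm8909, stood at -0.25 and -0.27 and did not pass (Gm8909, adjusted p = 0.363, limma). Gm8909 was named for its place, after its value had been seen. Of the 85 other genes of the segment, 10 passed (11.8%), 6 higher and 4 lower, against 3.11% of all genes tested higher and 3.13% lower. Among them were Vars2, a mitochondrial valyl-tRNA synthetase gene (0.67 ± 0.09, adjusted p = 1.32e-04, limma), and C4b, a complement gene (0.53 ± 0.07, adjusted p = 2.15e-04, limma). Lower were Ddr1, a collagen receptor gene (-0.53 ± 0.08, adjusted p = 3.42e-04, limma), and Mog, a myelin gene (-0.53 ± 0.09, adjusted p = 0.00199, limma), with H2-M3 as above. Of the 20 tested genes nearest B2m, 10 on each side, 2 passed (10%, against the same shares of all genes), Eif3j1 (0.29 ± 0.08) and Mfap1b (-0.15 ± 0.04), which were named after their values had been seen.

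**Figure D4:**
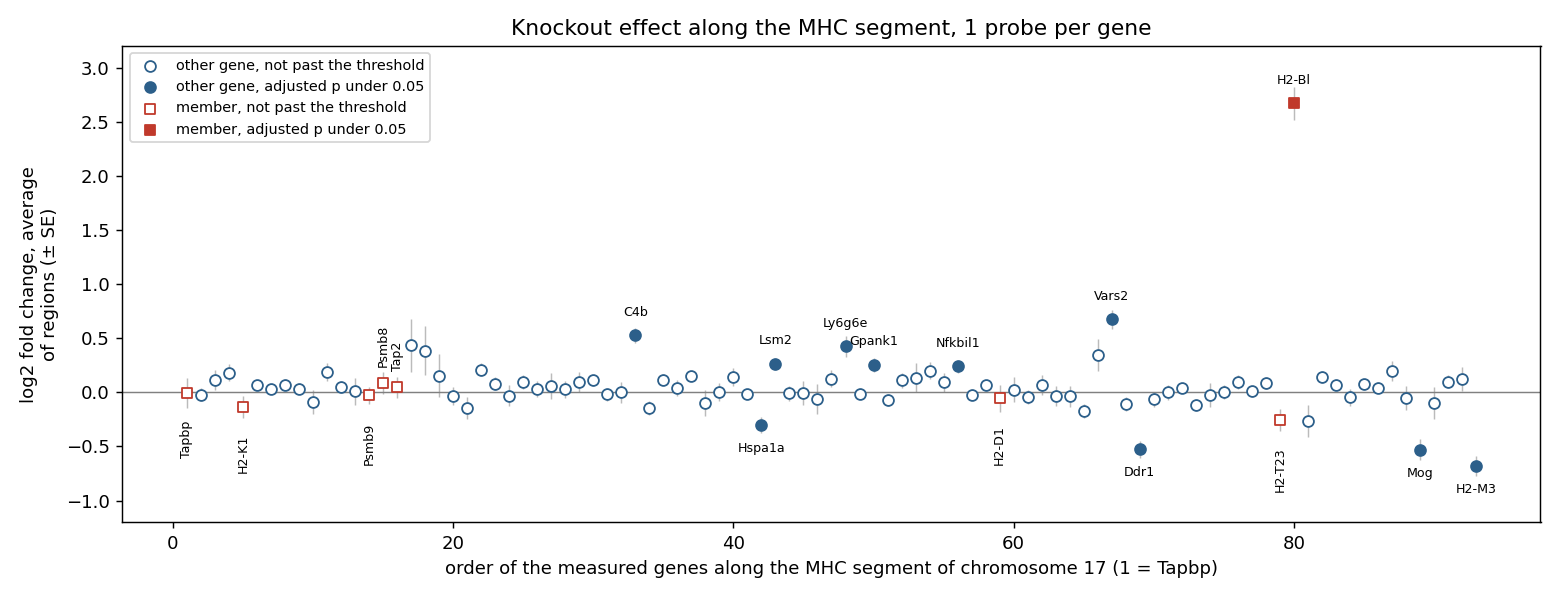
Log2 fold change in the average over regions with SE (vertical axis) of the 93 tested genes of the MHC segment, in their order along chromosome 17 (horizontal axis, rank from Tapbp); squares are genes of the set, and filled symbols have an adjusted p under 0.05. H2-Bl stands above the rest, as a call without a size, and the other 92 genes lie between -0.68 and 0.67.

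Over the whole series, mean signal per array ran from 788 to 1388 units, with 52.1% to 58.1% of probes detected. The Tas1r3 probe was detected on 1 of 18 arrays, at 112 to 164 units, and so gives no check of the genotype labels.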

How the data were processed

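The deposited table gave a bead signal for each of 25697 probes on 18 arrays, as a linear intensity with no normalization between arrays. A detection p-value stood beside each deposited intensity. The submitters' processing notes name GenomeStudio 2011.1, and no source used here says whether background was subtracted. The deposited z scores, a score per probe and array, equalled the standardized log signal of each array to within 5.0e-10 and served as an alternative. Probes were named from the platform annotation, with symbols updated through RefSeq (GRCm38.p6): 23978 probes had 1 symbol and 1719 had none.

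Intensities went through neqc of limma 3.58.1 under R 4.3.3, which corrects background from the detection p-values, quantile-normalizes and takes log2 (offset 16). Tests covered probes with a detection p under 0.05 on 3 or more arrays, in 1 fit of 6 group means over 18 arrays, with 12 residual degrees of freedom and eBayes. The 8 contrasts were knockout minus wild type in each region, their mean, an F test of whether they differ, and the pairs of regions within wild type. Benjamini-Hochberg adjustment ran over all 15476 probes tested, and 0.05 was the threshold. Log2 fold changes are given ± SE, and intervals are 95% intervals of the fit. Where a group detected a probe on none of its arrays, the difference is a bound, given as "at least N-fold". The code was tested on simulated data. The number of arrays limits the precision. Slides and scan dates were not known here. Each sample is 1 animal, per the series' design text, and groups came from the sample titles.

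The genes and lists were chosen with earlier results of these data known. The text names every probe of the 10 genes, up to 4 genes of each list that passed in the average by smallest p (or up to 2 as values where none did), and for H2-Bl, H2-D1 and B2m the 3 genes of highest correlation over the 18 arrays after each region's mean was removed. Figures were drawn with matplotlib 3.10.9, and exact permutation tests were run in Python 3.11.15. Alternatives changed the background correction, normalization, offset, filter, array weights, arrays in the fit and the replicate block.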

Additional observations from a re-analysis of the deposited data

How the results depend on the processing

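In the average over regions, the same 4 probes passed without any 1 of the 18 arrays. They also passed under each change of background correction, normalization, offset, filter, array weights and replicate block, and with the deposited z scores. The probes of the set tested numbered 11, except 15 with no filter on dim probes and 8 with the stricter filter. The regional counts moved more. In cortex the count of 3 became 1 with only the compared arrays in the fit. It ran from 1 to 4 over the alternatives and also from 1 to 4 when 1 array was left out. In hypothalamus the count of 2 became 4 without background correction and 4 with array weights, where both B2m probes passed as well, 1 with only the compared arrays, and 1 to 2 when 1 array was left out. Between regions, the count was 0 to 1 when 1 array was left out. The probe that passed there was H2-Bl, for which that test is not read, as given above. For wild-type hypothalamus against cortex the count ran from 2 to 5 over the alternatives, with 5 under array weights, and from 2 to 3 when 1 array was left out. For wild-type hypothalamus against hippocampus it ran from 1 to 3 over the alternatives, with 1 under an offset of 50 and 1 under the stricter filter. It was 2 to 4 there when 1 array was left out. For wild-type hippocampus against cortex it was 2 to 3 over the alternatives and 1 to 2 when 1 array was left out.

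Values that passed no test changed sign: Tapbp to 0.0051 without background correction, 9e-04 with an offset of 50 and 0.0023 in z score units; H2-D1 to 0.0059 with array weights and 0.0032 without the 3 cortex arrays. When 1 array was left out, Tapbp ranged from -0.1075 to 0.0982, H2-D1 from -0.1036 to 0.0344 and Psmb9 from -0.0776 to 0.0328. The cause of these moves was not tested.

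Knockout and wild-type arrays of the same region and replicate number correlated from -0.28 to 0.22 in their deviations, over 0.1 in 3 of 9 pairs, so the genotypes were not taken as paired. Between regions some numbers ran together: knockout hippocampus and hypothalamus correlated at 0.22, 0.26 and 0.37, and wild-type hippocampus with knockout hypothalamus at 0.10, 0.12 and 0.25. The design text counts 18 animals, and nothing says what a number marks. With the replicate block, the average for B2m ILMN_1216746 was -0.33 (adjusted p = 0.0016, limma), and 4 probes passed. Signals near background limit H2-K1, H2-D1, Psmb8 and the wild-type level of H2-Bl, and Tap1 was not measured above background.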
